A study of Mus musculus with 6 samples.

Results

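Ptx3 and 8 genes of the complement system were followed in RNAseq of immortalized mouse pancreatic fibroblasts. The genes are Ptx3, the C1 protease genes C1ra and C1s1, the component genes C3 and C4b, and the regulator genes Serping1, Cd55, Cd59a and Clu. All 9 members have a row in the count table, which lists 14831 genes, and each was found by its gene symbol. Ptx3 was chosen by its counts in these same libraries, where it was near 0 in one group and high in the other. Its values are therefore given as a description, with no test. The other 8 members were taken for their function.

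The 6 libraries were 3 labelled WT and 3 labelled KO for Gli2 and Gli3, 2 of the transcription factors that carry the Hedgehog signal into the nucleus. The cells were of mixed strain, and each library came from its own well of confluent cells in medium with calf serum. The study describes such lines as grown out of the pancreas of adult mice with floxed Gli alleles and then immortalized. Control cells received a GFP adenovirus and a dsRed lentivirus, KO cells received GFP and Cre adenovirus, and infected cells of both kinds were sorted by flow cytometry. Both groups thus come from floxed mice and share the GFP adenovirus, and they differ in the lentivirus as well as in Cre. How many independent lines stand behind the 3 wells of a group is not given in the sources used here, so p-values measure only the spread between these wells, which may be technical.

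Complement is a chain of plasma proteins in which proteases cut the next component. In the classical pathway C1q, C1r and C1s form the C1 complex, C1s cleaves C4 and C2, and the resulting convertase cleaves C3. Regulators stop this at each step: C1 inhibitor blocks the C1 proteases, CD55 speeds the decay of convertases, and CD59 blocks the membrane attack complex. PTX3 is a long pentraxin, a secreted pattern recognition protein that binds C1q and C4b-binding protein and takes part in building hyaluronan-rich matrix. Liver is the best known source of plasma complement, but fibroblasts also make several components.

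Promoter windows are shown for Ptx3, whose counts set it apart from the other members, and for a component (C3) and a regulator (Cd55) whose levels moved in opposite directions. They run from 250 bases before to 50 bases after the annotated start and come from RefSeq on GRCm38.p6, 5′ to 3′ on the strand of the gene. The Ptx3 window is chr3:66219637-66219936 on the plus strand, the C3 window is chr17:57228087-57228386 on the minus strand, and the Cd55 window is chr1:130462695-130462994 on the minus strand. Capitals mark matches to the motifs searched on both strands.
Ptx3: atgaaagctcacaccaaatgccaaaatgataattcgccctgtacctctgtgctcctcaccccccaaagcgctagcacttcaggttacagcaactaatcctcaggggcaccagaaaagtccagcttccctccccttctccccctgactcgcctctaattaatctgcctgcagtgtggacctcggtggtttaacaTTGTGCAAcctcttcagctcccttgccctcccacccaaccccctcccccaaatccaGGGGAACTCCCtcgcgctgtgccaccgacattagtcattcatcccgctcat
C3: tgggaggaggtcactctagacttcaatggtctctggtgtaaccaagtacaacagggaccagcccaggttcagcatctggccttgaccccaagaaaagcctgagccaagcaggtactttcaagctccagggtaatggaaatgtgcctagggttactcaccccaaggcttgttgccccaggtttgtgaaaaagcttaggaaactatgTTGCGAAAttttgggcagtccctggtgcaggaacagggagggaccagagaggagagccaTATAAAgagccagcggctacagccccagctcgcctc
Cd55: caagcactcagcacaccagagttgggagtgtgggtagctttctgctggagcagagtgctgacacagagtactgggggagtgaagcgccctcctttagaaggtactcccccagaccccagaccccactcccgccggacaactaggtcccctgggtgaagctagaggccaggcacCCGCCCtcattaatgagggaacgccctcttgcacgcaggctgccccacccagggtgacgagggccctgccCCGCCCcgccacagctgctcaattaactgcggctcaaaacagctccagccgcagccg
The capitals in Ptx3 are 1 match to the C/EBP letters TTGCNNAA, read on the other strand, and a stretch where 2 matches to the NF-kB motif, 1 on each strand, overlap. Those in C3 are 1 C/EBP match and the letters TATAAA, and those in Cd55 are 2 matches to the SP1 letters GGGCGG, both read on the other strand.

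Of the 9 members, 6 had a promoter window, and C4b, Serping1 and Clu did not. C1s1 had 2 overlapping windows, so the members had 7 in all. The C/EBP letters were in 4 of the 7 windows (those of C1ra, C3 and Ptx3 and 1 of the 2 of C1s1), against 10.8% of 32851 windows of the same length. The NF-kB motif was in Ptx3 alone, against 4.51% of windows. TATAAA was in C3 alone (13.6% of windows), GGGCGG in Cd55 alone (35.7%) and the letters TTCNNNGAA of the interferon element GAS in C1ra alone (8.30%). None of the 7 held the GLI letters GACCACCCA (0.253% of windows), the AP-1 letters TGANTCA (7.81%) or the motif of the interferon element ISRE (1.92%). A match is a description of the letters only.

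The targeted genes were read before the members. Gli2 had 809, 944 and 868 counts in the WT-labelled libraries and 1932, 2316 and 1926 in the KO-labelled ones. Gli3 had 392, 416 and 398 counts against 1434, 1637 and 1404. Both were higher in every KO-labelled library, with log2 fold changes of 1.05 (standard error, SE, 0.04, adjusted p = 8.01e-10) and 1.71 (0.05, 2.1e-11) in edgeR's quasi-likelihood test. Counts of a whole gene include reads outside the deleted exons, which could not be read apart here, so these values check neither the deletion nor the labels. Per the study's methods, infected lines were screened for recombination by qPCR and by western blot. Each direction given rests on the labels, and is written as the KO-labelled libraries relative to the WT-labelled ones.

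The WT-labelled libraries held 31728420 to 33905521 counts and the KO-labelled ones 32781730 to 41035931. Levels are given in CPM, counts scaled to a common library size, after TMM scaling, and 3 counts correspond to 0.0720 to 0.0957 CPM. A call required an adjusted p below 0.05 together with a difference of 1.5-fold or more, and 17.7% of the 14289 genes tested were called, 11.6% higher and 6.10% lower in the KO-labelled libraries. The fibroblast markers had a high summed level in both groups. For 9 of 10 markers it was 44824 to 47238 CPM in the WT-labelled libraries and 36791 to 38540 CPM in the KO-labelled ones. Of these Col3a1, Pdgfra, Pdgfrb and Dcn were called lower, S100a4 was called higher, Col1a1 was not called, and Pdpn has no row in the table analysed here. Thy1, of the same list, was near 0, with means of 0.0525 CPM in the WT-labelled and 0.390 CPM in the KO-labelled libraries, and was not tested. S100a4 was low too, at 2.31 and 7.36 CPM. Of the 12 macrophage markers 4 were in the table, with 40.6 to 46.5 CPM against 39.3 to 41.3 CPM, most of it Lyz2, and 0 of the 4 were called. Ptprc, Adgre1 and the C1q genes have no row. In bulk samples, fewer cells of a type and less RNA per cell cannot be told apart.

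Ptx3 went from the bottom of the table to its upper part. It had 2, 0 and 1 counts in the WT-labelled libraries, and 2336, 2776 and 2058 in the KO-labelled ones. The corresponding levels were 0.0638, 0 and 0.0313 CPM against 66.0, 66.6 and 62.3 CPM. The 3 KO-labelled libraries stood close together, with a mean of 65.0 ± 2.30 CPM (SD, n = 3), while every WT-labelled library was at or below the floor of 3 counts. Against that floor in each library, its level was at least 679-fold higher.

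The gene lies on chromosome 3 from 66219910 to 66225805 (plus strand, GENCODE M21 on GRCm38, as for all gene positions here). It sits within the body of Veph1, a gene of the opposite strand, and shares 0% of its exon bases with it. No stretch of 50 bases of its transcripts occurs in another gene. Per kb of exon, the level of Ptx3 was 0.0118 CPM in the WT-labelled libraries, rank 14668 of 14822 genes with a length. In the KO-labelled ones it was 24.2 CPM per kb, rank 1965. The log2 CPM values that the authors deposited gave −3.65, −6.07 and −4.41 against 6.04, 6.05 and 5.96.

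Ptx3 was 1 of 12 genes with at most 3 counts in every WT-labelled library and at least 100 in every KO-labelled library. The 5 genes whose profile was most like it were Tenm3, Pkhd1l1, Angptl7, Hcn4 and H19, with root mean square differences of 0.589, 0.706, 0.846, 0.966 and 1.00 on the log2(CPM + 0.5) scale over the 6 libraries. Tenm3, a teneurin of the cell surface, had 11, 12 and 18 counts against 2434, 2925 and 2594. Unlike Ptx3, it was above the floor of 3 counts in all 3 WT-labelled libraries. Hcn4, a pacemaker channel gene, had 1, 0 and 0 counts against 827, 1040 and 885, so it too was at or below the floor in the WT-labelled libraries.

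Markers of mesothelial cells moved with Ptx3, and those of epithelial cells did so in part. Of 8 mesothelial markers 7 were in the table. All 7 were called higher in the KO-labelled libraries, against 11.6% of all genes tested. Their summed level was 24.5 to 27.7 CPM against 357 to 362 CPM. Msln, the gene of mesothelin, had 77, 91 and 62 counts against 5949, 6904 and 5392. No mesothelial marker in the table was at 0 in a whole group. Gpm6a was at or below 3 counts in the WT-labelled libraries, so it passed the low-count filter through the KO-labelled ones. Epithelial markers, 5 of 10 in the table, summed to 20.2 to 22.7 CPM against 44.0 to 45.5 CPM, with Krt7, Cdh1 and Cela1 called higher. Sox9, of the same list, went the other way, from 8.51 to 6.03 CPM (log2 fold change −0.50, adjusted p = 0.000173), and was under the 1.5-fold limit. The part of these cell types in the Ptx3 values was not tested.

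**Figure D1:**
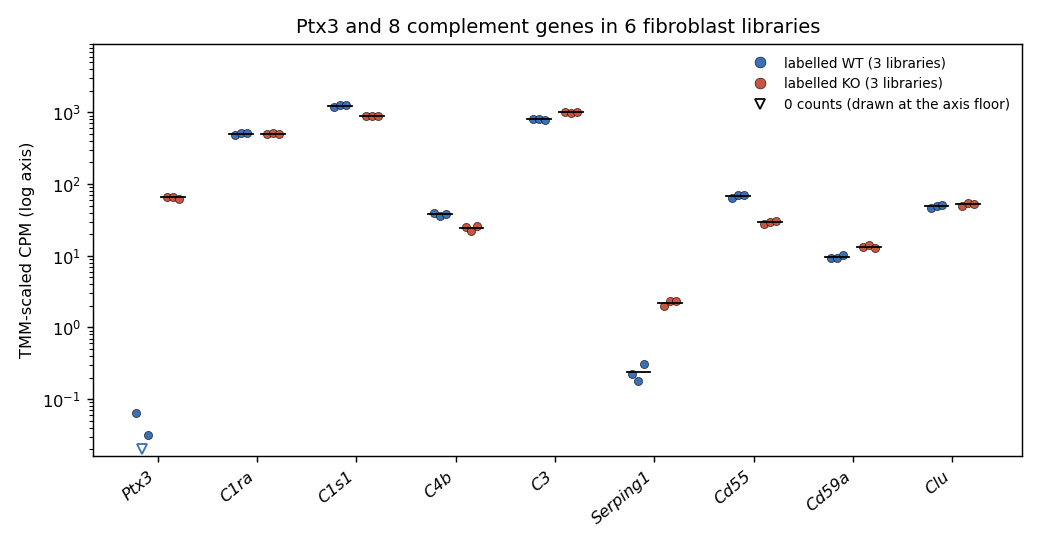
TMM-scaled CPM of Ptx3 and the 8 complement genes in each of the 6 libraries, on a log axis. Blue points are the 3 WT-labelled libraries, red points the 3 labelled KO, horizontal lines are group means, and the open triangle is the library with 0 counts, so no mean is drawn for that group. Ptx3 moves from below 0.1 CPM to 65.0 CPM, Serping1 rises from 0.239 to 2.21 CPM, and Cd55 and C4b are lower in all KO-labelled libraries, while C1ra and Clu overlap between the groups.

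Among the other 8 members, 3 were called, 1 higher (Serping1) and 2 lower (Cd55 and C4b), against the 17.7% called among all genes tested. Serping1 passed the low-count filter through the KO-labelled libraries, where it was high. Where 10 counts were required in every library, 0 members were called higher and 2 lower. With no fold limit, 6 of the 8 had an adjusted p under 0.05, 3 in each direction, which 58.7% of all genes tested also had. The groups did not overlap for 6 of the 8, and for 64.2% of all genes tested. The median log2 fold change of the 8 was 0.05, where the quartiles over all genes tested were −0.20 and 0.24. The shares without a fold limit and without overlap were thus not far from the background.

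The genes of both C1 proteases were at a high level in every library, and they moved unequally. C1s1 encodes C1s, the protease that cleaves C4 and C2. It had 37511, 42018 and 39857 counts in the WT-labelled libraries and 31190, 36936 and 29454 in the KO-labelled ones. The levels were 1233 ± 31.7 and 886 ± 5.71 CPM (SD, n = 3 each) with no overlap, a log2 fold change of −0.48 (SE 0.03, adjusted p = 1.94e-08). At 1.39-fold lower it stayed under the 1.5-fold limit and was not called.

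C1ra encodes C1r, which cleaves and activates C1s. Its counts were 15362, 17344 and 16407 against 17766, 21340 and 16648. The levels overlapped, at 507 ± 15.0 and 506 ± 5.39 CPM, and the log2 fold change was −0.0036 with a standard error of 0.03 (adjusted p = 0.928). C1ra lies on chromosome 6 from 124512405 to 124523443 (plus strand), and C1s1 from 124530345 to 124542359 on the minus strand.

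The ratio of C1s1 to C1ra within a library, per kb of exon, does not depend on the scaling between libraries. It was 2.33, 2.31 and 2.31 in the WT-labelled libraries and 1.67, 1.65 and 1.69 in the KO-labelled ones. The groups were far apart relative to their spread, at 2.32 ± 0.00928 and 1.67 ± 0.0185 (SD, n = 3 each). An exact permutation test, two-sided, gave p = 0.1, the smallest that 3 libraries against 3 allow. A ratio shows unequal change of the pair and not which of them changed.

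Both C1 protease genes have a near-identical copy in the same cluster, C1rb and C1s2. The coding sequences of C1ra and C1rb were 98.0% identical with 42 substitutions, and reads within an identical run of 757 bases match both. Those of C1s1 and C1s2 were 95.7% identical with 90 substitutions, and the longest identical run was 229 bases. The windows of 60 coding bases with the most differences between each pair are shown because only reads over such bases tell the copies apart. Capitals mark the bases at which a pair differs, and windows start at base 1798 of C1ra, 1795 of C1rb and 1484 of C1s1 and C1s2, counted from the first coding base.
C1ra: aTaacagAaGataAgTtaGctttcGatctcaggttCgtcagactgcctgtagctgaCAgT
C1rb: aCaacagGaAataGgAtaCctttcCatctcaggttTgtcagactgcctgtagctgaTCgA
C1s1: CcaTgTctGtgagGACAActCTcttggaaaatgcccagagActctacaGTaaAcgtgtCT
C1s2: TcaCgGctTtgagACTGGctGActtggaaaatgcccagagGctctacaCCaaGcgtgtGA
Between C1ra and C1rb 11 bases differ in this window, and between C1s1 and C1s2 17 bases.

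Of the 50-base stretches of C1ra, 48.0% also occur in C1rb, and 21.8% of those of C1s1 occur in C1s2. C1rb had 137, 170 and 140 counts against 120, 161 and 76, and the ratio of C1ra to C1rb per kb of exon was 90.0 ± 6.29 and 136 ± 37.6 (SD, n = 3 each). The C1rb log2 fold change of −0.52 (SE 0.16, adjusted p = 0.0129) was not called, and without KO replicate 2 it was called at −0.69. C1s2 had 613, 719 and 672 counts against 422, 508 and 384, and was called lower at −0.80 (0.06, 1.35e-07). With the reads of each pair summed, the log2 fold change was −0.0078 for C1ra and −0.48 for C1s1, close to the values of each gene counted alone. The copies had few counts beside C1ra and C1s1, so the sum could hardly move these values. It does not settle how reads that match both copies were counted. C1s1 also shares 18.4% of its exon bases with Gm16567 on the opposite strand, which had 55, 62 and 89 counts against 49, 41 and 43. Whether counting used strand is not given in the sources used here.

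C3 and C4b, the components that follow C1, moved in opposite directions. C3 is the component on which all complement pathways converge. It had 25688, 26675 and 24810 counts in the WT-labelled libraries and 35498, 40905 and 33678 in the KO-labelled ones. The level was higher in all 3 KO-labelled libraries, at 1001 ± 19.3 against 798 ± 21.3 CPM. The log2 fold change was 0.33 (SE 0.03, adjusted p = 1.06e-06), or 1.26-fold, and was not called. No 50-base stretch of C3 (chromosome 17 from 57203970 to 57228136, minus strand) occurs in another gene.

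C4b encodes mouse C4, whose cleavage by C1s starts the classical convertase. Its counts were 1233, 1211 and 1220 against 884, 927 and 867. The level was lower in all KO-labelled libraries, at 24.5 ± 2.05 against 37.9 ± 1.62 CPM. The log2 fold change of −0.63 (0.06, adjusted p = 1.36e-06) is 1.55-fold lower, just past the limit. It was −0.58 with upper-quartile scaling and −0.57 without KO replicate 2, and was not called under either. C4b (chromosome 17 from 34728380 to 34743882, minus strand) shares 34.6% of its 50-base stretches with C4a, the copy for sex-limited protein, which had 82, 108 and 78 counts against 86, 90 and 86 and was not called (log2 fold change −0.21, adjusted p = 0.217).

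Within a library, the ratio of C3 to C4b per kb of exon was 23.3 ± 0.962 in the WT-labelled libraries and 45.4 ± 3.05 in the KO-labelled ones. The ratio of C3 to C1s1 was 0.394 ± 0.0201 against 0.687 ± 0.0118. Both ratios were higher in every KO-labelled library, and the exact permutation test gave p = 0.1 for each, as for all 6 ratios formed, which is the smallest possible. The members' order by level changed accordingly.

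**Figure D2:**
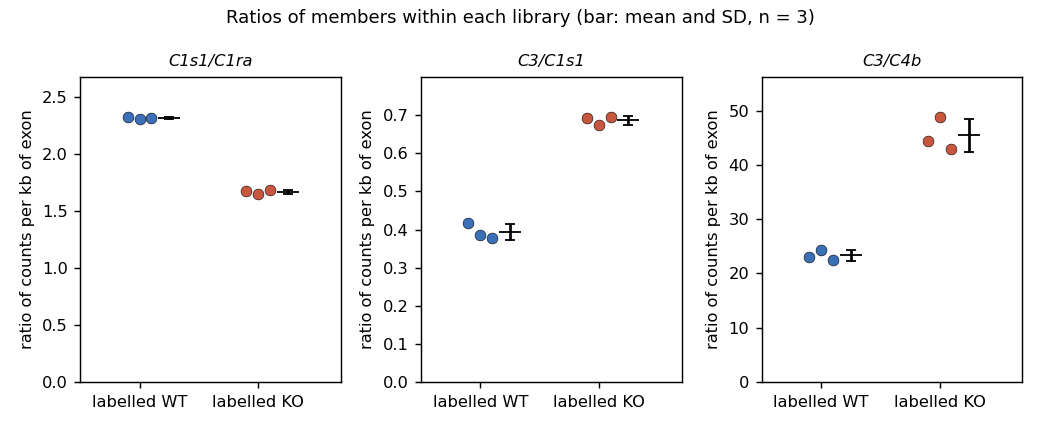
Ratios of counts per kb of exon between 2 members in the same library, on linear axes that start at 0. Points are the 3 WT-labelled libraries (blue) and the 3 labelled KO (red), and the bar beside them is the mean and SD. The mean ratio of C1s1 to C1ra is 2.32 and 1.67, that of C3 to C1s1 is 0.394 and 0.687 and that of C3 to C4b is 23.3 and 45.4, with no overlap in any panel.

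Per kb of exon, C1s1 was the highest member in both groups, at 394 CPM in the WT-labelled libraries and 283 CPM in the KO-labelled ones, ranks 67 and 98 of 14822 genes. C1ra (170 CPM) was above C3 (155 CPM) in the WT-labelled libraries, and C3 (195 CPM) was above C1ra (170 CPM) in the KO-labelled ones. Below these 3 the WT-labelled libraries had Clu at 14.2, Cd55 at 14.0, C4b at 6.66, Cd59a at 5.33, Serping1 at 0.103 and Ptx3 at 0.0118 CPM per kb. Only Clu and Cd55 had overlapping ranges in that order. In the KO-labelled libraries, Ptx3 came next after C1ra at 24.2, followed by Clu at 15.2, Cd59a at 7.38, Cd55 at 6.06, C4b at 4.30 and Serping1 at 0.951 CPM per kb, and no neighbours overlapped. Of the 50-base stretches of C1ra, 48.0% also occur in C1rb, while no such stretch of C3 occurs in another gene. The place of C1ra beside C3 may thus depend on how shared reads were counted, which was not tested.

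The sum over the members hardly moved. The 9 members held 0.263%, 0.270% and 0.268% of all counts in the WT-labelled libraries and 0.260%, 0.261% and 0.262% in the KO-labelled ones. C1s1, C3 and C1ra made up 93.7% to 94.0% of the members' counts in the first group and 92.6% to 92.9% in the second.

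The regulators moved in both directions. Serping1 encodes C1 inhibitor, a serpin that inactivates C1r, C1s and the MASP proteases. It had 7, 6 and 10 counts in the WT-labelled libraries and 71, 97 and 76 in the KO-labelled ones. The level was low in both groups and did not overlap, at 0.239 ± 0.0683 and 2.21 ± 0.179 CPM. Serping1 was called higher with a log2 fold change of 3.20 (SE 0.23, adjusted p = 1.19e-07), or 9.19-fold. It lies on chromosome 2 from 84765387 to 84775444 (minus strand) and shares no 50-base stretch with another gene. No WT-labelled library had more than 10 counts, so Serping1 passed the low-count filter through the KO-labelled libraries, where it was high. Its fold and p-value are to be read with that limit. Where 10 counts in every library were required, it was not tested.

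Cd55 encodes decay-accelerating factor, a membrane protein that takes apart C3 convertases. Its counts were 2012, 2327 and 2232 against 991, 1223 and 1020. Every KO-labelled library was below every WT-labelled library, at 29.4 ± 1.46 against 67.9 ± 3.18 CPM. The log2 fold change was −1.21 (0.05, adjusted p = 3.71e-10), 2.31-fold lower, and Cd55 was called lower. The gene spans chromosome 1 from 130439027 to 130462744 (minus strand) and shares 7.998% of its 50-base stretches with its copy Cd55b, which has no row in the table analysed here. The copies' coding sequences were 92.6% identical. Cd55 also shares 2.10% of its exon bases with Gm16083 on the opposite strand.

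Cd59a encodes CD59, which blocks assembly of the membrane attack complex. It had 295, 312 and 326 counts against 464, 594 and 421. The level was higher in all KO-labelled libraries, at 13.4 ± 0.785 against 9.65 ± 0.492 CPM, with a log2 fold change of 0.47 (0.07, adjusted p = 8.14e-05). At 1.39-fold it was under the limit. Cd59a (chromosome 2 from 104095801 to 104115354, plus strand) shares 3.87% of its 50-base stretches with Cd59b, which has no row either, and the pair was 85.0% identical in coding sequence.

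Clu encodes clusterin, a secreted chaperone that also binds the terminal complement complex. Its counts were 1456, 1634 and 1632 against 1736, 2277 and 1750. The groups overlapped, at 48.8 ± 2.33 and 52.2 ± 2.89 CPM, and the log2 fold change of 0.10 (0.05, adjusted p = 0.0980) did not pass the test. That outcome depended on the setting. Over 14 alternative fits the adjusted p ran from 0.0131 to 0.356 and the log2 fold change from 0.06 to 0.16. It stayed uncalled in all 14. Clu lies on chromosome 14 from 65968483 to 65981547 (plus strand). The 2 membrane regulators among the members thus differed in sign, with Cd55 lower and Cd59a higher.

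The rest of the complement pathway was read from a list of 57 further genes, of which 24 were in the table and 23 were tested. Of these 5 were called higher and 4 lower, against 11.6% and 6.10% of all genes tested, and their median log2 fold change was −0.06. The C1q genes, Cfb, Cfd, Hc, C6, C7, C9, C3ar1 and C5ar1 have no row in the table analysed here. The recognition subunit of C1, the alternative pathway protease factor B and most of the terminal pathway were thus not analysed here, and the 9 members leave gaps at these steps.

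C4bp, whose product binds C4b in plasma and helps to degrade it, had the largest change among the called genes of the list. It had 750, 930 and 841 counts in the WT-labelled libraries and 29, 25 and 17 in the KO-labelled ones. The level fell from 26.0 ± 1.94 to 0.645 ± 0.157 CPM, a log2 fold change of −5.33 (SE 0.12, adjusted p = 2.39e-12), or 40.1-fold. The other regulators of the list included Vtn, the gene of vitronectin, with 12, 10 and 13 counts against 1, 0 and 0, at least 3.99-fold lower and not tested. Cr1l, a membrane regulator of mouse cells, was at 67.0 ± 2.84 and 69.3 ± 2.95 CPM (0.05, adjusted p = 0.334). Cr1l and Vtn were named after their values had been seen.

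In the lectin pathway, which feeds into C4 and C2 through MASP proteases, Colec11 and Masp2 were called higher. Colec11, a soluble collectin, had 54, 54 and 53 counts against 310, 335 and 297, a log2 fold change of 2.36 (0.11, adjusted p = 1.18e-09). Masp2, the protease that cleaves C4 and C2, had 36, 43 and 49 counts against 106, 103 and 84 (1.01, SE 0.16, adjusted p = 0.000129). Neither overlapped between the groups. Masp2 was low in both, at 1.32 and 2.67 CPM. Masp1, at 275 and 264 CPM, and Colec10, at 18.7 and 20.2 CPM, were not called (adjusted p = 0.265 and 0.149). Masp1 and Colec10 were named after their values had been seen. Colec12, a membrane scavenger collectin, had 25059, 28429 and 27201 counts against 17195, 20254 and 15821 and was called lower at −0.79 (0.03, adjusted p = 4.04e-10).

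C2, the partner of C4 in the classical convertase, had 17, 11 and 14 counts against 61, 64 and 65, a log2 fold change of 1.99 (0.22, adjusted p = 7.67e-06). It was called higher while C4b was called lower. Among receptors of complement and of cells marked by it, Megf10 had 24, 27 and 11 counts against 69, 63 and 45 (1.32, adjusted p = 0.000835) and Scarf1 had 13, 20 and 12 against 33, 33 and 28 (0.87, adjusted p = 0.00841). Both are scavenger receptors that bind C1q. In the same list Calr (1049 and 1072 CPM), Lrp1 (4312 and 3904 CPM), C1qbp (71.6 and 74.6 CPM) and Itgb2 (9.26 and 6.93 CPM) were not called. These 4 were named after their values had been seen. Cd93 had 47, 43 and 57 counts against 36, 43 and 29 and was called lower at −0.63 (adjusted p = 0.0109), but it was not called without WT replicate 3 (−0.50, adjusted p = 0.0589), without KO replicate 3 (−0.57) or with upper-quartile scaling (−0.57).

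**Figure D3:**
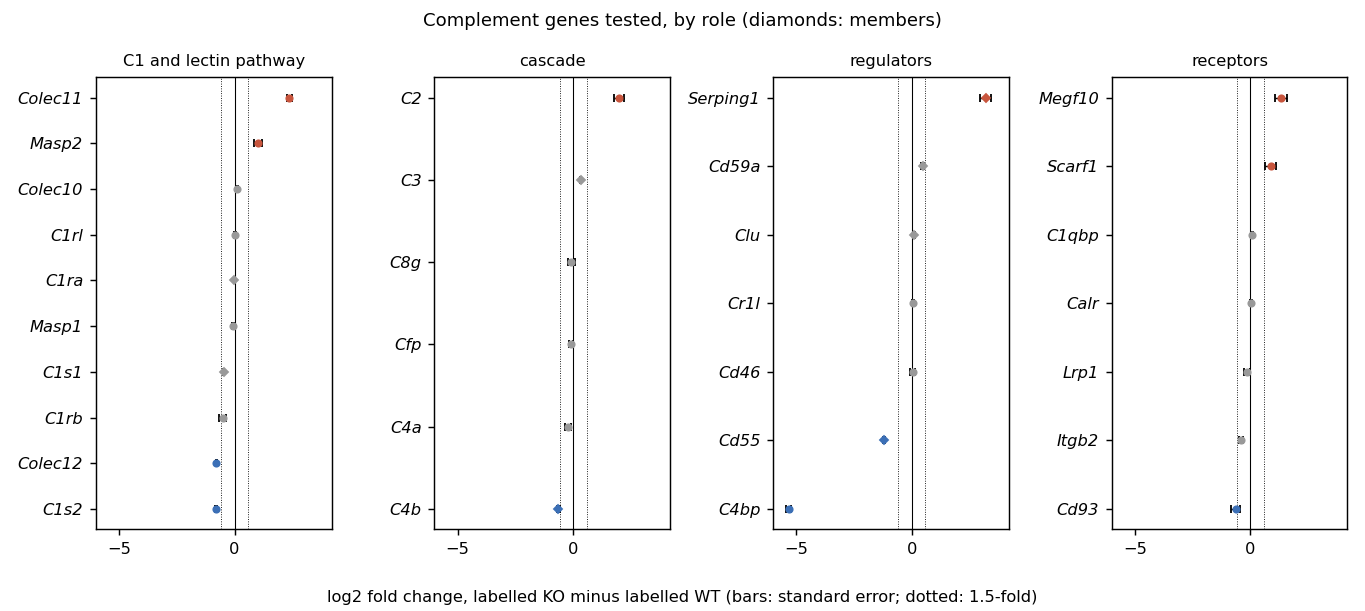
Log2 fold change of the complement genes tested and reported here, in 4 panels by role, as the KO-labelled libraries minus the WT-labelled ones. Diamonds are members, circles are other complement genes, bars are standard errors (hidden by the marker where small), dotted lines mark the 1.5-fold limit, and red and blue mark genes called higher and lower. C4bp at −5.33 and Serping1 at 3.20 stand farthest from 0, and most genes lie between the dotted lines.

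Of the pentraxin family only Ptx3 and Nptxr were in the table. Nptxr, the neuronal pentraxin receptor, had 780, 832 and 812 counts against 1763, 2007 and 1489, and was called higher with a log2 fold change of 0.93 (SE 0.05, adjusted p = 3.38e-09). Crp, Apcs, Ptx4, Nptx1 and Nptx2 have no row in the table analysed here, so the short pentraxins were not analysed here.

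PTX3 acts in the hyaluronan matrix together with TNFAIP6 and the heavy chains of inter-alpha-inhibitor, and it binds FGF2 and P-selectin. Of 13 genes listed for these partners and for hyaluronan synthesis and binding, 10 were tested, and 4 were called higher and 4 lower. That is 8 of 10 called, against 17.7% of all genes tested, in no common direction. The list was chosen with earlier results of these data known, so this share is a description only. Tnfaip6, Selp and Has1, given below, had under 10 counts in every library of 1 group. They passed the low-count filter through the other group, where each was high. Their folds and p-values are to be read with that limit. Where 10 counts were required in every library, 5 genes were called, 2 higher and 3 lower. Tnfaip6 had 5, 8 and 5 counts against 66, 76 and 45, a log2 fold change of 3.16 (0.27, adjusted p = 6.77e-07). Has2, a hyaluronan synthase, had 105, 97 and 86 against 445, 470 and 369 (1.97, SE 0.10, adjusted p = 3.82e-09). Selp, the gene of P-selectin, had 0 counts in all 3 WT-labelled libraries and 25, 42 and 21 in the KO-labelled ones, at least 8.18-fold higher. Fgf2 was also called higher, at 8.63 ± 0.467 and 15.6 ± 0.528 CPM (0.86, adjusted p = 2.25e-07).

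The partners that were lower included Has1, another hyaluronan synthase, with 24, 41 and 26 counts against 5, 1 and 5 (−3.18, SE 0.42, adjusted p = 3.23e-05). Itih3, a heavy chain of inter-alpha-inhibitor, had 54, 47 and 51 counts against 10, 24 and 16 (−1.79, 0.24, adjusted p = 3.37e-05). Vcan, the gene of the hyaluronan-binding proteoglycan versican, had 7601, 8370 and 8351 counts against 4302, 4489 and 4083 (−1.10, 0.05, adjusted p = 1.13e-09). Itih2, another heavy chain gene, was called lower, at 27.3 ± 0.837 and 15.0 ± 0.620 CPM (−0.86, adjusted p = 2.19e-08). Has1 and Has2 thus moved in opposite directions, and Cd44, the main hyaluronan receptor, and Has3 were not called. Fgf2, Itih2, Cd44 and Has3 were named after their values had been seen.

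C3, C4b, Ptx3 and other members belong to the acute phase response in many settings, so a list of 19 acute phase and humoral innate genes was read beside them. Of these 11 were in the table and 10 were tested, 1 called higher and 4 lower, against 11.6% and 6.10% of all genes tested. Saa3, a serum amyloid A gene, had 3, 3 and 2 counts against 30, 29 and 18, at least 7.27-fold higher. It was the 1 called higher, and it passed the low-count filter through the KO-labelled libraries. Where 10 counts were required in every library, 0 genes of the list were called higher and 4 lower. Lbp, which binds lipopolysaccharide, had 7896, 8568 and 7523 counts against 2871, 3319 and 2591 (log2 fold change −1.64, SE 0.04, adjusted p = 2.1e-12). Cp, the gene of ceruloplasmin, had 7464, 7636 and 7167 against 2761, 3255 and 2616 (−1.55, 0.03, adjusted p = 1.14e-12).

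Serpina3g, a serpin, was also called lower (−1.32, SE 0.18, adjusted p = 4.35e-05), as was Hp, the gene of haptoglobin (−0.97, adjusted p = 7.61e-07), which was named after its value had been seen. Lbp and Cp were thus lower where Ptx3 was higher. Of 10 hepatocyte markers 4 were in the table, summing to 7.83 to 8.74 CPM against 4.33 to 4.60 CPM, and Ahsg, with 0 counts in all 3 KO-labelled libraries, was the 1 that was called. The lower sum came from Ahsg, at 4.74 CPM in the WT-labelled libraries, while Apoa2 (0.426 and 0.654 CPM), Trf (2.91 and 3.46 CPM) and Apoh (0.240 and 0.386 CPM) had higher means in the KO-labelled ones and were not called. Alb and Apoa1 have no row in the table analysed here. Of 6 endothelial markers Vwf was the 1 in the table, at 0.866 to 1.60 CPM against 0.763 to 0.939 CPM, and it was not called. The part of these cell types in the acute phase values was not tested.

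**Figure D4:**
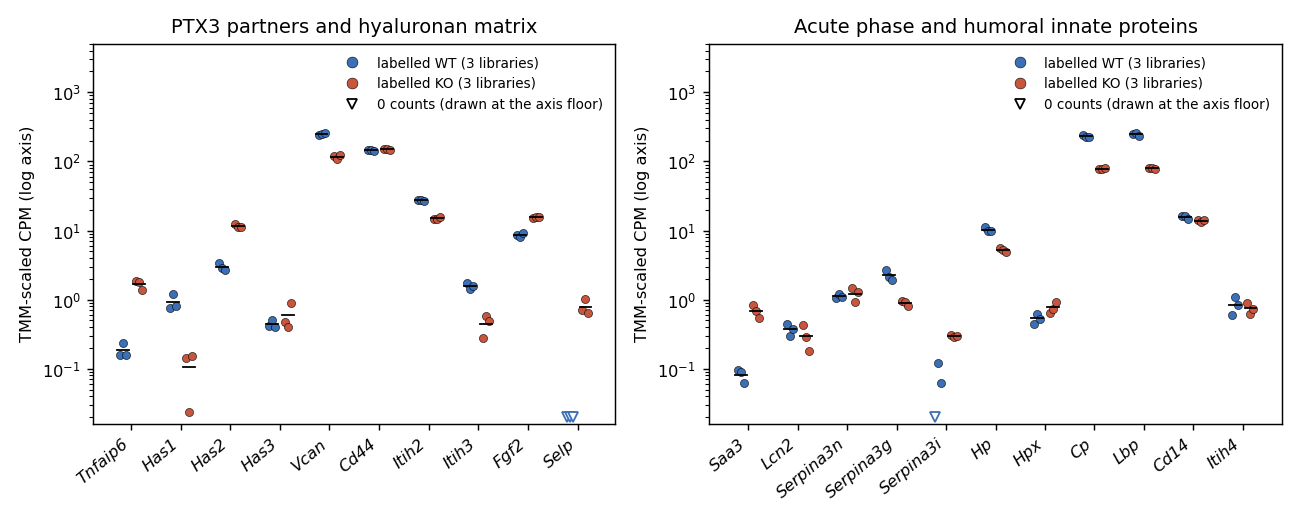
TMM-scaled CPM of the listed PTX3 partners (left) and acute phase genes (right) in each library, on a log axis. Blue points are the 3 WT-labelled libraries, red points the 3 labelled KO, lines are group means and open triangles are libraries with 0 counts. Tnfaip6, Has2, Selp and Saa3 are higher and Has1, Itih3, Vcan, Lbp and Cp lower in every KO-labelled library.

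Genes beside the members were read to see whether neighbours moved with them. Within 100000 bases of a member, 35 further genes were in the table, 34 were tested, and 2 were called higher and 8 lower, against 11.6% and 6.10% of all genes tested. Veph1, whose body holds Ptx3, had 13, 18 and 23 counts against 29, 54 and 26 and was called higher (log2 fold change 0.82, SE 0.28, adjusted p = 0.0247). Its level was 0.558 ± 0.154 and 0.967 ± 0.285 CPM, low in both groups.

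In the cluster of C1r and C1s genes on chromosome 6, C1rl, the neighbour of C1ra, was not called (0.01, adjusted p = 0.789), while Gm16567, antisense to C1s1, was called lower (−0.81, adjusted p = 0.00533), as was C1s2. Of the 9 neighbours of C4b, 4 were called lower (Tnxb, Ppt2, Prrt1 and Fkbpl), against 6.10% of all genes tested. Near Serping1 1 of 11 was called, Slc43a1, which was higher (1.83, SE 0.13, adjusted p = 1.35e-07). The nearest gene to C4b, Tnxb, had a log2 fold change of −1.82 (SE 0.10, adjusted p = 9.5e-09). The neighbours of C4b and Serping1 were named after their values had been seen.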

How the data were processed

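RNAseq of 6 libraries of immortalized mouse pancreatic fibroblasts was analysed, 3 labelled WT and 3 labelled KO, with groups taken from the sample labels. Libraries were made from polyadenylated RNA. The authors deposited 2 tables, one of raw counts per gene and one of log2 CPM from voom. The submitters' processing notes name STAR 2.7.2b, featureCounts, limma and GRCm38.p6, with no role or order. The annotation release, the strand setting and the filter on low counts are not given in the sources used here. The lowest total of a listed gene is 20 counts over the 6 libraries, so a gene with no row may have been counted below such a filter.

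The raw counts went into edgeR 4.0.16 (R 4.3.3) with TMM factors, filterByExpr and the quasi-likelihood F test on the whole table, with p-values adjusted by Benjamini-Hochberg over 14289 genes. The common biological coefficient of variation was 3.74%. Calls needed an adjusted p under 0.05 and a 1.5-fold change. A group with at most 3 counts in every library was set to a floor of 3 counts per library, and the fold given as a lower bound. The floor of 3 counts covers counting error only. Replicate pairs of a group differed by more than sampling noise (chi-square over degrees of freedom 2.47 to 7.53), so all 6 libraries were kept.

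Of 14831 identifiers, 14822 matched GENCODE M21 without the version and 14515 with it, and levels per kb use the union of its exons. Shared sequence was counted in words of 50 bases of its transcripts. Promoter windows were taken from RefSeq. The genes named follow a written rule: the members, their copies, pentraxins, Gli2 and Gli3, up to 5 called complement genes in each direction, up to 3 from the partner and acute phase lists in each direction, the 5 genes most like Ptx3, and neighbours of Ptx3 and the C1 genes. The members, lists and rule were chosen with earlier results of these data known. 1 listed gene is counted in its list but is not reported here.

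Alternatives were scaling by RLE, by upper quartile or by totals, no filter or a stricter one, no fold limit or a 2-fold one, DESeq2 1.42.0, limma 3.58.1 on voom values of the counts and on the deposited log2 values, and leaving out each library. Summing the reads of a member and its copy was added after seeing the data.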

Additional observations from a re-analysis of the deposited data

How the results depend on the processing

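Of the 8 members tested, 3 were called as reported, 6 with no fold limit, and 2 or 3 without each library in turn (2 without KO replicate 2, where C4b was lost). With upper-quartile scaling and with a 2-fold limit 2 were called, without C4b, and 2 where 10 counts were required in every library, which removes Serping1 from the test. The other complement genes gave 9 calls as reported, 5 with a 2-fold limit, and 8 to 11 without each library. The PTX3 partners gave 8 calls, 5 where 10 counts were required in every library, which left fewer genes tested, and 8 without each library in turn. The acute phase list gave 5 calls, 4 where 10 counts were required in every library, and 5 to 6 without each library. The lower bound of the Ptx3 fold was 679, with 705 under upper-quartile scaling, 2096 with the 3 counts taken over the group in place of each library, and 670 to 693 without each library. Settings that left a gene untested are not in the next count. Serping1, Selp, Tnfaip6, Has1 and Saa3 were untested where 10 counts were required in every library. Over 446 settings of named genes, 440 stayed on their side of the call. The call was lost in 5 (C4b in 2, Cd93 in 3) and gained in 1 (C1rb), and in 0 the sign changed past the call. The cause of these changes was not tested except where the setting itself removes genes. No paired analysis was possible because the labels give no replicate numbers that the groups share. Depth limits Ptx3, Selp and Saa3 in the WT-labelled libraries, where every count is at or below the floor, and makes Serping1 rest on 6 to 10 counts a library there.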
